A study of Homo sapiens with 32 samples.

Results

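The genes described here encode the cytosolic translation elongation factors and their close namesakes: EEF1A1, EEF1A2, EEF1B2, EEF1D, EEF1G, EEF1E1 and EEF2. They were chosen by symbol, and all 7 were found among the 19023 genes of the count table. Of these, 6 had enough counts to be tested, and EEF1E1 did not. The cells were RPE-1, an immortalised wild-type human line from retinal pigment epithelium, kept without serum for 18 h and then given serum. Collection was at 0 h (starved, no serum added) and after 5, 10 or 15 h with serum, with 4 biological replicates per time for RNA-seq of total RNA depleted of ribosomal RNA and 4 for Ribo-seq, which counts the mRNA fragments that ribosomes protect (footprints). A single cell line was used, and no library came from cells left without serum for the same hours, so an effect of serum and one of elapsed time cannot be told apart.

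During elongation the eEF1A GTPase (EEF1A1 or EEF1A2) brings aminoacyl-tRNA to the ribosome, and the eEF1B complex (EEF1B2, EEF1D and EEF1G) reloads it with GTP. The GTPase eEF2 (EEF2) then moves the ribosome along the mRNA by a codon. EEF1E1, despite its name, is a scaffold of the multi-tRNA synthetase complex. Many mRNAs of the translation machinery begin with a 5′ terminal oligopyrimidine tract (5TOP), a C followed by an unbroken run of pyrimidines, through which growth signals are known to control their translation. EEF1A1 is the form found in most cells, whereas EEF1A2 is known from neurons and muscle.

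The start-site windows below show which of 5 of these genes begin with such a tract in the RefSeq annotation (GRCh38.p14). EEF1D and EEF1A2 had no window in the set used and were not examined. Each window holds 10 bases before the annotated start of the gene and 20 bases from it, on the strand of the gene, and capitals mark the longest run in the window that starts with C and continues with at least 4 more C or T bases. EEF1B2 has an entry for each of its annotated starts.
EEF2: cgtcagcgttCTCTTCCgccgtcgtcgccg
EEF1A1: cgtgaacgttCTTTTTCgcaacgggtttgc
EEF1B2, downstream start: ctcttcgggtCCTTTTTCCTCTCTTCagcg
EEF1B2, upstream start: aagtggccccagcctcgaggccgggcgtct
EEF1G: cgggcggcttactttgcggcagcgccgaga
EEF1E1: tgcaggtctcgcgtctgccaggagctacgg

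The EEF2 window lies at chr19:3985444-3985473 on the minus strand and the EEF1A1 window at chr6:73521013-73521042 on the minus strand. The EEF1B2 windows lie at chr2:206159885-206159914 and chr2:206159599-206159628 on the plus strand, EEF1G at chr11:62573872-62573901 on the minus strand, and EEF1E1 at chr6:8102529-8102558 on the minus strand. In EEF2 and EEF1A1 a run of 7 bases, and at the downstream start of EEF1B2 a run of 16 bases, began at the annotated start base itself. A run of at least 7 bases at that base was present in 2.10% of all 35116 windows, in 47.8% of 69 windows of cytosolic ribosomal protein genes and in 58.3% of 12 windows of other 5TOP genes. The windows of EEF1G and EEF1E1 and the upstream window of EEF1B2 held no run on this strand, which was the only strand searched. A match describes annotated letters only, and the start sites used by these cells were not measured.

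Depth ran from 595851 to 1107470 counts per RNA library and from 2851423 to 9901322 per footprint library. Levels are CPM (counts per 1000000 counts) after scaling within the assay, and changes are log2 ratios with standard errors (SE). With no spike-in, each change is measured against the rest of that assay, and less RNA per cell and fewer cells cannot be told apart. A gene was called when its edgeR quasi-likelihood p, with Benjamini-Hochberg adjustment across every tested gene, was under 0.05. Of 7 epithelial and mesenchymal markers, KRT8, KRT18, CDH2, VIM and FN1 had medians of 388 to 6104 CPM over RNA libraries, while CDH1 had 2 counts in all and COL1A1 24. Of 9 pigment epithelium markers, MITF had the highest median (25.6 CPM), BEST1, OTX2 and MERTK had medians of 6.42, 8.60 and 3.49 CPM, RLBP1 and SERPINF1 had 20 and 14 counts in all, and RPE65, TYR and PMEL had 1, 2 and 4. Of 5 blood and endothelial markers, CD68 had a median of 16.1 CPM, PTPRC and PECAM1 had 7 and 6 counts, and HBB and HBA1 had 0. Of 6 neuron and muscle markers, TUBB3 and MAP2 had medians of 17.3 and 10.5 CPM, and SYP, MYH7, CKM and ACTA1 had 14, 27, 29 and 63 counts. All these marker values are from the RNA libraries, which are shallower than the footprint libraries. In footprints COL1A1, SERPINF1 and PMEL had 720, 465 and 40 counts, and CDH1, RPE65, TYR, HBB and HBA1 had 3, 7, 2, 0 and 0. Footprint medians were 92.1 CPM for CD68, 52.7 CPM for MAP2 and 0.868 CPM for TUBB3.

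Footprints of the major elongation factors rose about 5-fold to 11-fold within 5 h of serum. EEF2 had the highest counted level, with 5215 ± 262 CPM at 5 h and 612 ± 68.7 CPM at 0 h (SD, n = 4 each). Its rank is uncertain, because the sources used here do not say how reads of near copies of other members were counted. EEF1A1, EEF1G, EEF1D and EEF1B2 rose with EEF2, and EEF1A2, the neuron and muscle form of eEF1A, was not called at any time.

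The EEF2 gene (ENSG00000167658, chromosome 19, 3976056 to 3985463) had footprint levels of 615, 658, 660.4 and 513 CPM at 0 h. Serum libraries held 5424, 4969, 5458 and 5008 CPM at 5 h, 4465, 4227, 4534 and 4627 CPM at 10 h, and 3988, 3589, 3729 and 3917 CPM at 15 h. Every serum library lay above every starved one, and the 3 serum times did not overlap each other. EEF2 footprints were 8.53-fold higher at 5 h than at 0 h (log2 3.09 ± 0.07, adjusted p = 4.74e-33 by edgeR with n = 4). EEF2 took 0.500% of all footprint counts at 5 h, against 0.0716% at 0 h.

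The EEF1A1 gene (ENSG00000156508, chromosome 6, 73515750 to 73521032), the aminoacyl-tRNA carrier, had footprint levels of 13.3, 10.2, 8.81 and 13.3 CPM at 0 h. At 5 h, 10 h and 15 h they were 150.1, 103, 125 and 117 CPM, then 91.8, 88.2, 87.3 and 90.8 CPM, then 60.3, 67.6, 61.7 and 75.1 CPM. The peak at 5 h was followed by lower levels at each later time, with no overlap between the groups. EEF1A1 footprints were 11-fold higher at 5 h than at 0 h (log2 3.46 ± 0.13, adjusted p = 1.41e-16 by edgeR with n = 4).

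Each eEF1B subunit had its highest mean footprint level at 10 h, but only in EEF1B2 and EEF1G were all 10 h libraries above those of every other time. EEF1G (ENSG00000254772, chromosome 11, 62559596 to 62573891), the gamma subunit, had footprint levels of 10.7, 11.7, 14.4 and 10.7 CPM at 0 h, 125, 118, 123 and 127 CPM at 5 h, 142, 132, 138 and 144 CPM at 10 h, and 118, 106, 109 and 117 CPM at 15 h. All 4 libraries at 10 h were above all at 5 h and at 15 h. EEF1B2 (ENSG00000114942, chromosome 2, 206159609 to 206162928), which carries the exchange activity of the alpha subunit, had 4.44, 5.74, 6.61 and 5.52 CPM at 0 h, 33.0, 37.8, 35.9 and 37.1 CPM at 5 h, 42.6, 42.1, 46.2 and 44.9 CPM at 10 h, and 33.8, 31.4, 34.9 and 37.4 CPM at 15 h in footprints. It showed the same order, with its 10 h libraries highest and its starved libraries lowest. EEF1D (ENSG00000104529, chromosome 8, 143579728 to 143597415), the delta subunit and the other exchange factor, had 19.8, 15.9, 18.97 and 16.9 CPM at 0 h, 87.8, 79.7, 90.5 and 89.6 CPM at 5 h, 87.6, 91.7, 94.3 and 93.9 CPM at 10 h, and 88.3, 80.6, 82.9 and 78.8 CPM at 15 h in footprints. Its serum groups overlapped their neighbours in time, and all lay above the starved libraries. At 5 h against 0 h the log2 footprint changes were 3.36 ± 0.08 for EEF1G, 2.65 ± 0.12 for EEF1B2 and 2.29 ± 0.08 for EEF1D, with adjusted p = 2.71e-31, 8.77e-23 and 2.21e-26 by edgeR.

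EEF1A2 (ENSG00000101210, chromosome 20, 63488014 to 63499083) had footprint levels of 7.10, 3.82, 4.06 and 3.09 CPM at 0 h and 4.22, 3.81, 3.10 and 2.28 CPM at 5 h. At 10 h they were 3.16, 3.10, 2.27 and 4.14 CPM, and at 15 h 6.90, 3.29, 3.43 and 2.38 CPM. The groups overlapped at every time, and its log2 change at 5 h against 0 h was -0.36 ± 0.28 (95% interval -0.91 to 0.20, adjusted p = 0.255 by edgeR). It had 387 footprint counts and 388 RNA counts in all, so its values are less precise than those of the other tested members. EEF1A2 became called as lower in footprints at 5 h (-0.64) and 10 h (-0.75) when libraries were scaled by their totals alone.

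EEF1E1 (ENSG00000124802, chromosome 6, 8073360 to 8102548) had 0 counts in all 16 RNA libraries and 1 count in each of 4 footprint libraries, 4 in all. A count of 0 allows up to 0.211 CPM over the RNA libraries, for counting error only. The readthrough gene EEF1E1-BLOC1S5 overlaps it and is also in the count table, and the sources used here do not say how reads in both were assigned. Its level could therefore not be compared between times, and genes of like pattern could not be sought for it.

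**Figure D1:**
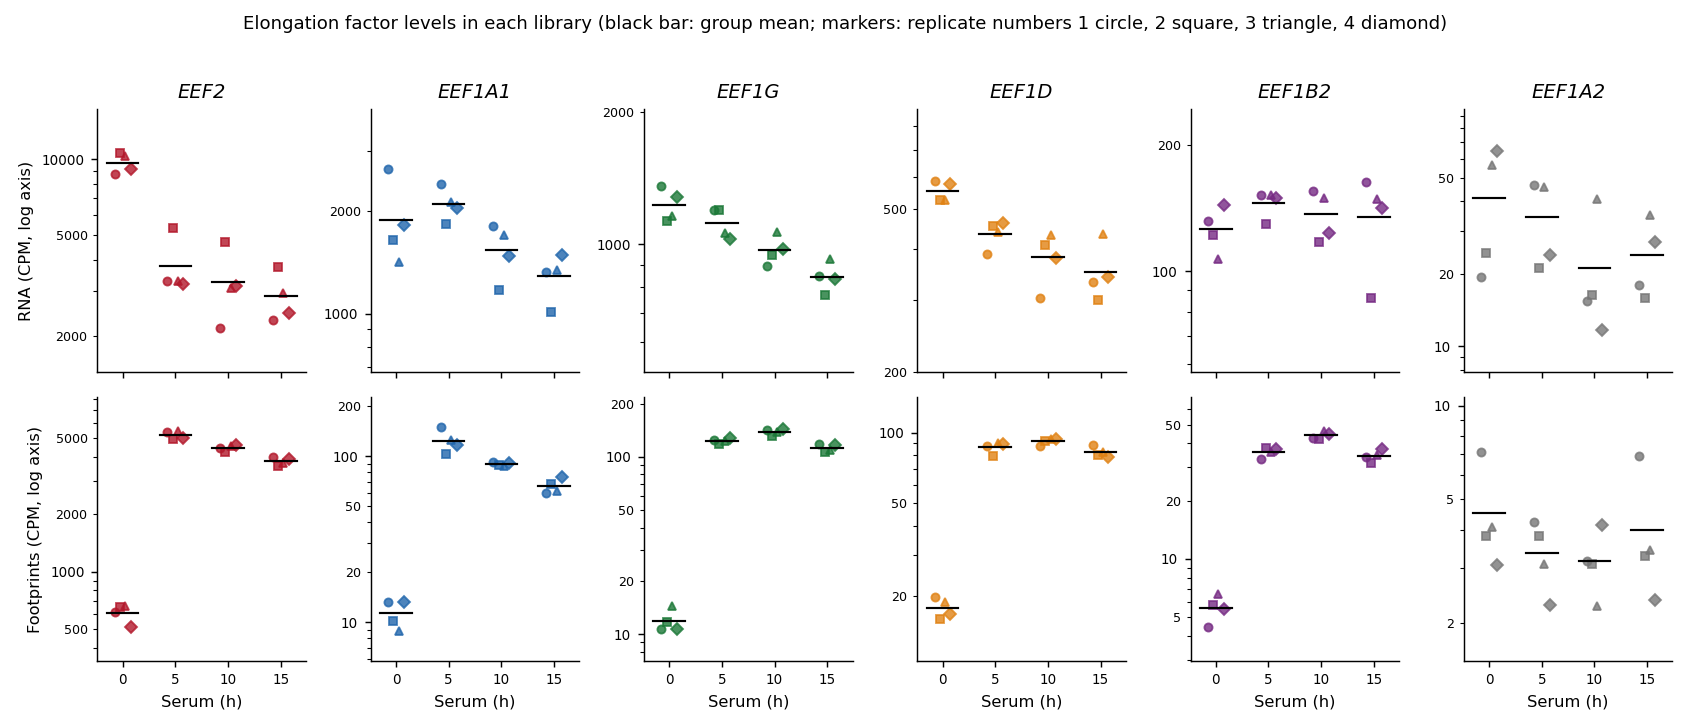
Level of each tested elongation factor gene in every library, in CPM on a log axis, for RNA (top) and footprints (bottom) against hours of serum, with 4 libraries per time and a black bar at their mean. Footprints of all genes but EEF1A2 are lowest at 0 h, while EEF2 RNA is highest at 0 h and its replicate 2 (squares) is the highest at every time.

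Against all genes, 5 of 6 tested members were higher and 0 lower in footprints at 5 h than at 0 h, where 35.2% of 10959 genes were called higher and 40.5% lower. At 10 h and 15 h against 0 h the count was again 5 of 6 higher and 0 lower, beside 39.4% and 40.1% of genes higher and 39% and 39.6% lower. The members' median log2 footprint change was 2.87 at 5 h, 2.91 at 10 h and 2.58 at 15 h, and that of all genes was -0.07, -0.02 and -0.01. The largest at 15 h was EEF1G, 9.35-fold higher than at 0 h (log2 3.23 ± 0.08), and the smallest of the called members was EEF1D, 4.63-fold higher (log2 2.21 ± 0.08). The 30 footprint and ratio results of the 5 called members against 0 h kept direction and call in 615 of 615 alternatives. The serum times share the same starved libraries, so these comparisons are not independent of each other.

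Between serum times the footprint changes of the 5 called members were smaller than those against 0 h. At 10 h against 5 h, EEF1B2 (0.29 ± 0.07) and EEF1G (0.17 ± 0.05) were called higher in footprints and EEF1A1 (-0.47 ± 0.09) and EEF2 (-0.22 ± 0.06) lower, 2 of 6 in each direction, beside 31% of all genes higher and 30.7% lower, a share near that of the members. EEF1D (0.08 ± 0.06) was not called, and its groups overlapped. The EEF1G call was lost with upper-quartile scaling (0.07, adjusted p = 0.259 by edgeR). At 15 h against 10 h, 5 of 6 were called lower and 0 higher, beside 20.2% of genes lower and 20.8% higher, and EEF1A2 (0.24 ± 0.27) was not called. The log2 falls were -0.43 ± 0.09 for EEF1A1, -0.35 ± 0.07 for EEF1B2, -0.31 ± 0.05 for EEF1G, -0.23 ± 0.06 for EEF2 and -0.16 ± 0.06 for EEF1D. The EEF1D call was lost without footprint replicate 4 at 15 h (-0.14, adjusted p = 0.0771 by edgeR), one of 4 alternatives that ended it.

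RNA moved the other way or little. EEF2 mRNA fell to 3788 ± 1026 CPM at 5 h, against 9714 ± 892 CPM at 0 h (SD, n = 4 each), and EEF1D mRNA fell less. EEF1G and EEF1A1 mRNA were called lower only at later times, EEF1B2 and EEF1A2 mRNA at none, and no member was called higher in RNA in any of the 5 comparisons.

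EEF2 RNA levels were 8736, 10588, 10340.0 and 9191 CPM at 0 h, 3307, 5326, 3303 and 3215 CPM at 5 h, 2148, 4682, 3094 and 3148 CPM at 10 h, and 2304, 3743, 2938 and 2463 CPM at 15 h. All 12 serum libraries lay below all 4 starved ones, and replicate 2 was the highest at each time. EEF2 RNA was 2.56-fold lower at 5 h than at 0 h (log2 -1.36 ± 0.21, adjusted p = 3.82e-05 by edgeR with n = 4) and 3.39-fold lower at 15 h (log2 -1.76 ± 0.21, adjusted p = 9.86e-07). EEF2 took 0.371% of RNA counts at 5 h, against 1.02% at 0 h. With the 4 RNA libraries numbered 2 left out, an alternative chosen after the data were seen, the log2 change at 5 h was -1.60.

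EEF1A1 RNA levels were 2664, 1648, 1416 and 1822 CPM at 0 h, 2401, 1833, 2131 and 2039 CPM at 5 h, 1813, 1173, 1705 and 1474 CPM at 10 h, and 1324, 1011, 1343 and 1488 CPM at 15 h. The starved libraries spread widely and overlapped each serum group. The log2 change of EEF1A1 RNA was 0.15 ± 0.17 at 5 h and -0.55 ± 0.17 at 15 h against 0 h, the change at 15 h with adjusted p = 0.0117 by edgeR. That call was lost under 3 of 17 alternatives, among them without starved RNA replicate 1 (-0.29, adjusted p = 0.122).

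EEF1G RNA levels were 1354, 1132, 1162 and 1279.5 CPM at 0 h, 1199, 1198, 1061 and 1028 CPM at 5 h, 895, 948, 1069 and 975 CPM at 10 h, and 847, 770.0, 927 and 833 CPM at 15 h. Starved libraries were above all those at 10 h and 15 h, with log2 changes of -0.34 ± 0.11 and -0.55 ± 0.11 (adjusted p = 0.0137 and 0.000272 by edgeR). The call at 10 h was lost under 4 of 17 alternatives. Among them, the change was -0.25 without RNA replicate 1 at 10 h (adjusted p = 0.106) and -0.27 without a filter on low counts (adjusted p = 0.144).

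EEF1D RNA levels were 587, 527, 528 and 575 CPM at 0 h, 389.9, 454, 439 and 463 CPM at 5 h, 304, 409, 432 and 381 CPM at 10 h, and 332, 299.9, 435 and 342 CPM at 15 h. No serum library reached the starved ones. The log2 changes against 0 h were -0.34 ± 0.13, -0.54 ± 0.13 and -0.66 ± 0.13 at 5 h, 10 h and 15 h, with adjusted p = 0.0477, 0.00223 and 0.000319 by edgeR. The first of these calls was lost under 5 of 17 alternatives. Among them were the fits without RNA replicate 1 at 5 h (-0.28, adjusted p = 0.153) and without a filter on low counts (-0.33, adjusted p = 0.122).

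EEF1B2 RNA levels were 132, 122, 107 and 143 CPM at 0 h, 152, 129, 152 and 149 CPM at 5 h, 156, 117, 149.9 and 123 CPM at 10 h, and 163, 86.0, 148 and 142 CPM at 15 h. The groups overlapped throughout, and the log2 change at 5 h was 0.21 ± 0.17 (95% interval -0.14 to 0.55). EEF1A2 RNA levels were 19.4, 24.4, 56.3 and 64.3 CPM at 0 h, 46.6, 21.1, 45.9 and 23.8 CPM at 5 h, 15.4, 16.3, 40.6 and 11.7 CPM at 10 h, and 17.9, 15.9, 34.9 and 27.1 CPM at 15 h. These groups also overlapped, and its log2 change at 10 h against 0 h was -1.03 ± 0.43 (adjusted p = 0.0597 by edgeR). That change passed the threshold under 6 of 17 alternatives, with values between -1.44 and -1.01.

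In RNA, 2 of 6 tested members were called lower and 0 higher at 5 h against 0 h, beside 16.7% of 8775 genes lower and 19.2% higher. At 10 h against 0 h 3 of 6 were lower and 0 higher, beside 21.5% and 23.3% of genes. At 15 h against 0 h 4 of 6 were lower and 0 higher, beside 25.4% of genes in each direction. Between serum times 0 of 6 were called by edgeR (with no replicate block) or by DESeq2 in either direction, with 1 member at an unadjusted p under 0.05 at 10 h against 5 h and 0 at 15 h against 10 h. The background was 10.1% higher and 9.56% lower at 10 h against 5 h, and 3.81% higher and 2.11% lower at 15 h against 10 h. At 10 h against 5 h the EEF1A1 RNA change was -0.45 ± 0.17 (adjusted p = 0.0743 by edgeR).

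The footprint-to-RNA ratio, called translational efficiency (TE) here, rose in 5 of 6 tested members at every serum time against 0 h. The largest change was in EEF2, whose RNA fell while its footprints rose. Its ratio was 21.2-fold higher at 5 h than at 0 h (log2 4.41 ± 0.24), against a median log2 change of -0.06 over all 8736 genes tested. The ratio change was 3.46 ± 0.14 for EEF1G, 3.25 ± 0.24 for EEF1A1, 2.58 ± 0.15 for EEF1D and 2.41 ± 0.21 for EEF1B2, and -0.15 ± 0.55 for EEF1A2 (95% interval -1.23 to 0.93).

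The test of each was the assay-by-time interaction in 1 edgeR fit over all 32 libraries, and adjusted p was 4.16e-16 for EEF2, 1.77e-20 for EEF1G, 2.38e-13 for EEF1A1, 4.03e-16 for EEF1D, 2.39e-11 for EEF1B2 and 0.925 for EEF1A2. In the order of ratio changes at 5 h over all genes, from the highest down, EEF2 stood at place 4, EEF1G at 10, EEF1A1 at 13, EEF1D at 40 and EEF1B2 at 50. The 5 called members stood beside 4.13% of genes called higher and 2.34% lower at 5 h. At 10 h and 15 h against 0 h 5 of 6 members were again higher and 0 lower, beside 5.44% and 7.03% of genes higher and 1.8% and 3.94% lower. EEF2 was then 20.2-fold and 19.2-fold higher than at 0 h, and EEF1G 13.7-fold and 12.5-fold.

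Between serum times 0 of 6 members were called in the ratio by edgeR in either direction and 0 by DESeq2, which gave EEF1A2 no adjusted p at 10 h against 5 h. In each comparison 1 member had an unadjusted p under 0.05 by edgeR. At 10 h against 5 h 0.595% of genes were called higher and 0.0572% lower. At 15 h against 10 h 0% were called higher and 0% lower, with 0 genes called by edgeR, 542 at an unadjusted p under 0.05 and 2 called by DESeq2. The log2 ratio changes of EEF2 were -0.07 ± 0.23 at 10 h against 5 h and -0.07 ± 0.23 at 15 h against 10 h, with 95% intervals of -0.52 to 0.37 and -0.52 to 0.38. The members' medians were 0.27 and -0.10, beside 0.02 and 0.00 for all genes.

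**Figure D2:**
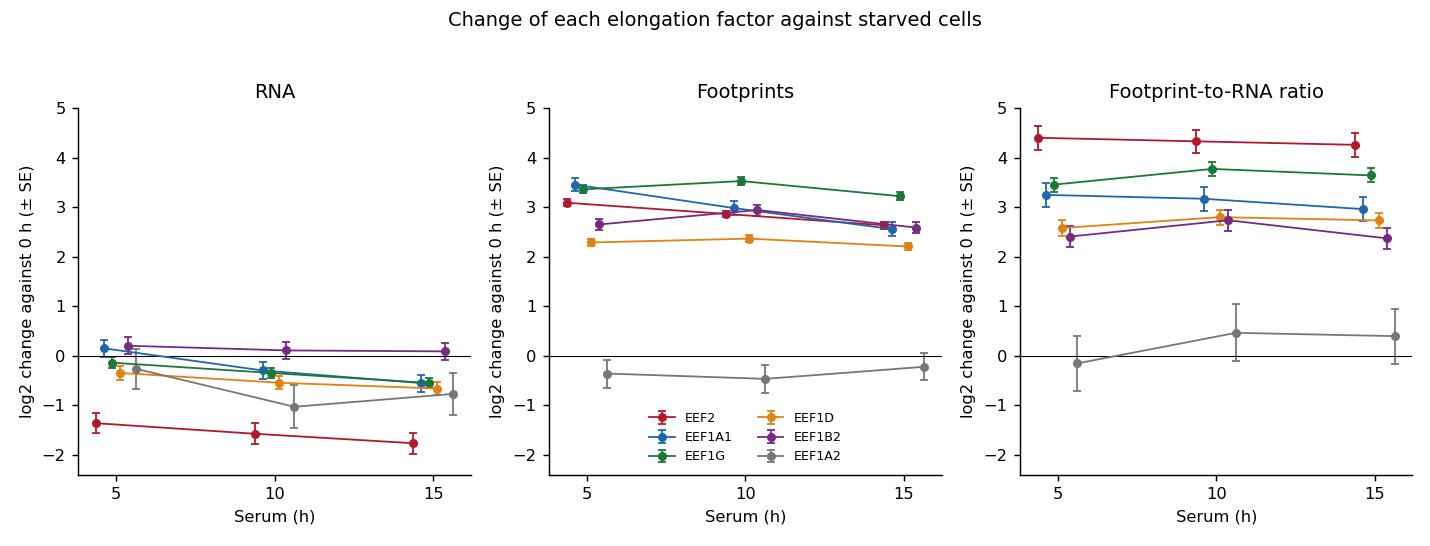
log2 change against starved cells (0 h), with standard errors, for RNA, footprints and the footprint-to-RNA ratio at 5 h, 10 h and 15 h of serum, 1 line per gene (points are set apart sideways). In the ratio EEF2 is highest at 4.41, 4.33 and 4.26, and EEF1A2 lies within its error of 0 at 5 h.

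The ratio itself, footprint CPM over RNA CPM, was far below that of most genes in starved cells. Its log2 value in EEF1A1 was -7.29 at 0 h, the lowest of all 8736 genes, and -4.04, -4.12 and -4.32 at 5 h, 10 h and 15 h. For EEF1G it was -6.59, -3.14, -2.82 and -2.95 over the same times, for EEF1D -4.87, -2.28, -2.06 and -2.13, and for EEF1B2 -4.37, -1.96, -1.63 and -1.999. For EEF2 it was -3.90, 0.51, 0.44 and 0.37, so that EEF2 alone of these genes stood above the median of all genes with serum, which was -0.24, -0.32, -0.25 and -0.27. For EEF1A2 it was -3.11, -3.26, -2.64 and -2.71. These levels are descriptions with no test, and a ratio level depends on how reads of near copies were counted, on which the sources used here are silent. RefSeq names 50 pseudogenes after EEF1A1 and 8 each after EEF1B2, EEF1D and EEF1G, but 0 after EEF2 and EEF1A2, and no such pseudogene is in the count table. Counts of the 4 genes with near copies are therefore uncertain as levels. Only pseudogenes named after a member were sought, and likeness between EEF1A1 and EEF1A2 themselves was not examined, so EEF1A2 may share this uncertainty.

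**Figure D3:**
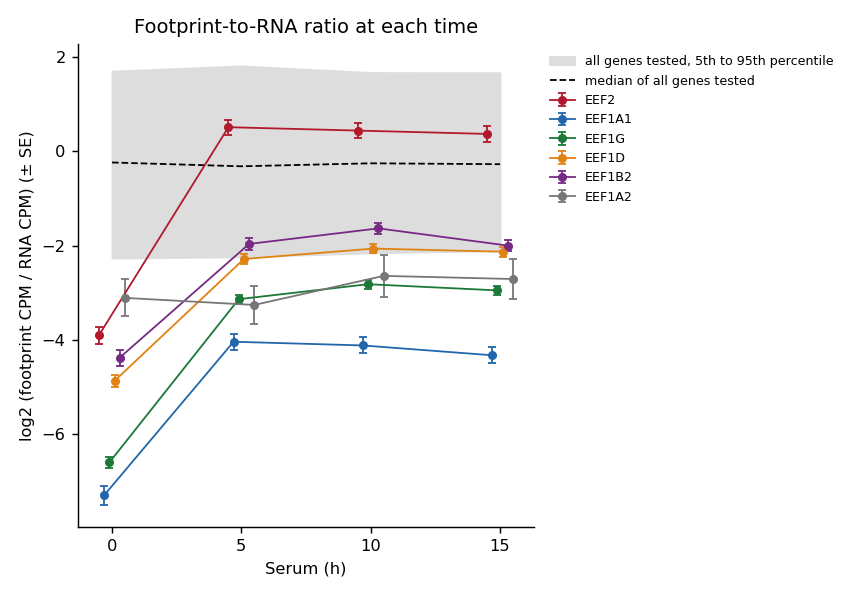
log2 ratio of footprint CPM to RNA CPM with standard errors at 0 h, 5 h, 10 h and 15 h of serum, with the median (dashed) and the 5th to 95th percentile (grey) of all genes tested. At 0 h every tested member lies below the grey band, whose lower edge is at -2.26, and from 5 h on EEF2 lies near 0.51 to 0.37.

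Levels were compared between genes per kilobase of counted length, which was 2517 bases for EEF2, 1254 for EEF1G, 1221 for EEF1A1, 618 for EEF1B2, 356 for EEF1D and 1332 for EEF1A2. In footprints EEF2 was first at each time, with 243 ± 27.3 CPM per kilobase at 0 h and 2072 ± 104 at 5 h (SD, n = 4), and EEF1D was next with 50.3 ± 5.06 and 244 ± 13.9. EEF1A2 was last with 3.39 ± 1.33 and 2.52 ± 0.639 CPM per kilobase. At 0 h EEF1G (9.46 ± 1.40), EEF1A1 (9.34 ± 1.86) and EEF1B2 (9.02 ± 1.44) did not differ beyond their spread in footprints. In RNA EEF2 led at 0 h with 3859 ± 354 CPM per kilobase, and EEF1D (1558 ± 87.8) and EEF1A1 (1546 ± 445) did not differ beyond their spread. At 5 h, 10 h and 15 h EEF2, EEF1A1 and EEF1D overlapped within 1 SD of their neighbours in the order of RNA levels per kilobase, and EEF1G, EEF1B2 and EEF1A2 followed in that order. The counted length of EEF1D is short, so its levels per kilobase depend on what part of the gene was counted. How reads of near copies of EEF1A1, EEF1B2, EEF1D and EEF1G were counted is not known, so their order against EEF2 is uncertain.

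The genes whose footprint log2 CPM ran most like that of EEF2 over the 16 footprint libraries, among 7981 genes with a mean of at least 10 CPM, were SLC25A6, a mitochondrial ADP/ATP carrier (Pearson r = 0.999), the ribosomal protein genes RPL28 and RPS2 (0.998 each), and WDR1 and CORO1C, which act on actin filaments (0.998 each). Footprints of SLC25A6 averaged 573 CPM at 5 h, against 61.0 CPM at 0 h. Among the members r with EEF2 was 0.992 for EEF1G, 0.989 for EEF1D, 0.982 for EEF1B2, 0.980 for EEF1A1 and -0.33 for EEF1A2. All points share the step between starved and serum libraries, and r is given as a description over these 16 libraries.

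Genes that act on or beside the elongation factors were read from lists. For the ratio at 5 h against 0 h, the other cytosolic elongation and termination factors had 0 of 11 tested genes called by edgeR, with a median log2 change of -0.05. The diphthamide enzymes, which modify eEF2, had 0 of 4 called and a median of -0.04, and the methyltransferases and kinase of eEF1A and eEF2 had 0 of 4 and -0.07. None of these 3 lists held a gene at an unadjusted p under 0.05 in the ratio. The mitochondrial elongation factors had 1 of 5 called higher, TUFM, the mitochondrial counterpart of eEF1A (0.66 ± 0.17, adjusted p = 0.00974 by edgeR), with a list median of -0.13. TUFM lost its call without footprint replicate 4 at 0 h (0.55, adjusted p = 0.0527). These medians stand beside -0.06 for all genes, and the calls beside 4.13% of genes higher and 2.34% lower.

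The kinase of eEF2, EEF2K, which is known to inhibit eEF2 by phosphorylation, fell in RNA to 26.1 ± 7.59 CPM at 5 h, against 48.5 ± 14.4 CPM at 0 h (SD, n = 4; log2 -0.85 ± 0.25, adjusted p = 0.00969 by edgeR). EEF2K footprints were 35.0 ± 1.56 CPM at 5 h, against 47.7 ± 2.48 CPM at 0 h, a log2 change of -0.44 ± 0.07 (adjusted p = 1.53e-06). At 10 h EEF2K had 45.1 CPM in RNA and 50.2 CPM in footprints and was called in neither against 0 h. At 15 h it was called lower again in both, with log2 changes of -0.57 ± 0.24 in RNA and -0.35 ± 0.07 in footprints (adjusted p = 0.0494 and 3.66e-05 by edgeR). Its ratio was not called at any time.

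The other genes of the multi-tRNA synthetase complex, to which EEF1E1 belongs, had 2 of 11 tested genes called higher in the ratio at 5 h and 0 lower, with a median of 0.19. Over all genes 4.13% were called higher and 2.34% lower in that comparison. The called genes of the complex were the glutaminyl-tRNA synthetase QARS1 (1.86 ± 0.18, adjusted p = 3.75e-10 by edgeR) and the scaffold AIMP2 (0.53 ± 0.16, adjusted p = 0.0442). The call of AIMP2 was lost under 14 of 25 alternatives, with values between 0.38 and 0.55. In footprints all 11 were called higher at 5 h, beside 35.2% of all genes, with a median log2 change of 0.83. In RNA 6 were higher and 1 lower, beside 19.2% and 16.7% of all genes. The initiation factors of the cap complex had 2 of 9 called higher in the ratio, the helicases EIF4A1 (0.98 ± 0.11, adjusted p = 9.89e-09) and EIF4A2 (0.80 ± 0.23, adjusted p = 0.0318), with a median of 0.27. EIF4A2 lost its call under 12 of 25 alternatives, with values between 0.62 and 0.82.

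The cytosolic ribosomal proteins had 60 of 60 tested genes (of 69 in the table) called higher in the ratio at 5 h, with a median log2 change of 2.54, and the other 5TOP genes 15 of 16, with a median of 1.72. The members' median was 2.92, and 4.13% of all genes were called higher. RPS18 (3.56 ± 0.23) and RPL13A (3.60 ± 0.19), of the small and large subunits, were close to EEF1G, and RPS16 had the largest change with a wide error (4.43 ± 1.05, adjusted p = 0.00833 by edgeR), lost without starved RNA replicate 3 (3.20, adjusted p = 0.0728). Of the other 5TOP genes the poly(A)-binding protein PABPC1 had 3.13 ± 0.25, TPT1 2.95 ± 0.16 and the ribosome-bound scaffold RACK1 2.40 ± 0.13. COX7C was the 1 gene of that list not called. In RNA at 5 h 0 of 60 ribosomal protein genes were called by edgeR and 3 had an unadjusted p under 0.05, with a median of -0.05, while EEF2 RNA fell by 1.36 on the log2 scale. Over all genes 19.2% were called higher and 16.7% lower in RNA at 5 h. At 15 h 33 of 60 ribosomal protein genes were lower in RNA, beside 25.4% of all genes, with a median of -0.43. Several of these lists were known from earlier results of the same data to move with serum, so their counts are not independent evidence of a direction.

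**Figure D4:**
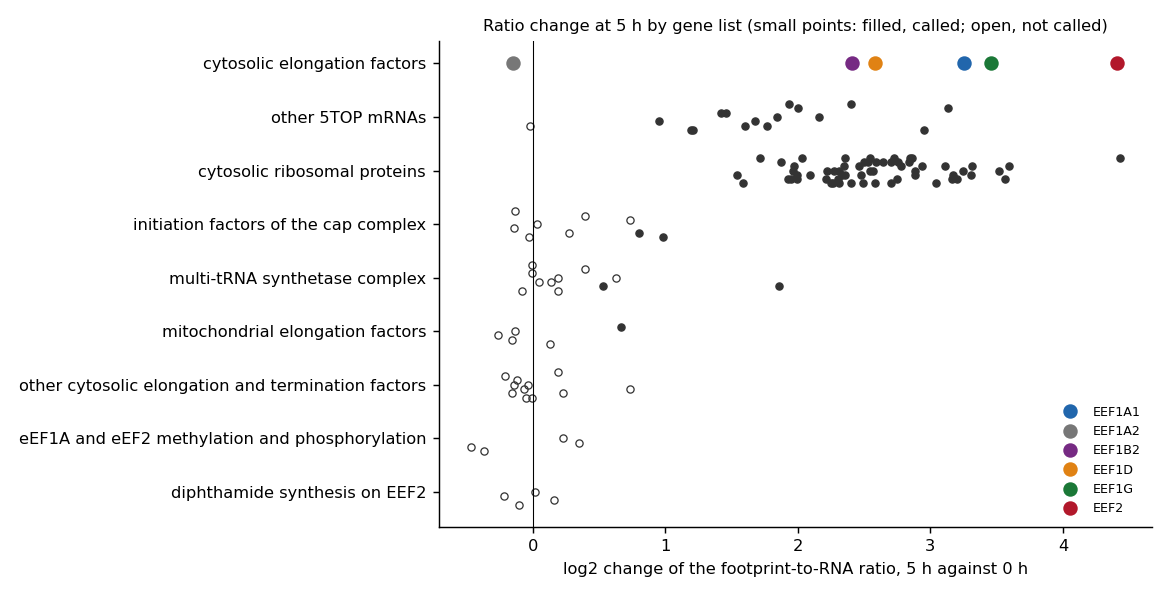
log2 change of the footprint-to-RNA ratio at 5 h against 0 h for the 6 tested elongation factors (top, coloured) and for genes of 8 lists (filled where called, open where not). EEF1A2 lies at -0.15 among the uncalled genes, and the other 5 members lie between 2.41 and 4.41, with EEF2 above every ribosomal protein gene but RPS16 (4.43 ± 1.05).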

How the data were processed

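RNA-seq and Ribo-seq were measured in 32 libraries of RPE-1 cells, 16 per assay and 4 per time. The deposited table holds counts, whole numbers of reads per gene with no normalisation. Per the submitters' processing notes, the tools were STAR 2.5.4a and featureCounts 1.5.1 and the build was GRCh38. The libraries were made with a kit for small RNA, per the labels' protocols. The annotation release, the strand setting and the handling of reads that match several places are not given in the sources used here. Of 19023 genes, 18905 were matched to a symbol, and 2193 had no count. The deposited counted length was a multiple of 3 in 96.46% of genes and is read as bases of coding sequence. That of EEF1D, 356 bases, was not a multiple of 3, so this reading is less sure for it. Whether the whole coding sequence of a gene was counted is not given in the sources used here. Start windows came from a set of sequences around RefSeq starts (GRCh38.p14), in which 5 of 7 members had a window and EEF1D and EEF1A2 had none.

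Counts were scaled with TMM factors within each assay in edgeR 4.0.16 (R 4.3.3), filtered with filterByExpr, and fitted by robust quasi-likelihood with time as the factor. This left 8775 genes in RNA and 10959 in footprints. The ratio test was the assay-by-time interaction over the 8736 genes that passed in both assays, in 1 fit that shares a dispersion between assays (common biological coefficient of variation 0.102, beside 0.185 in RNA alone and 0.0547 in footprints alone). p-values were 2-sided and adjusted by the Benjamini-Hochberg method across every tested gene. CPM errors are SD over 4 libraries. The SE of a change was taken from its edgeR F statistic. Intervals are normal limits at a nominal 95% and may be too narrow, since the F test allows for an estimated spread. Alternatives were other scaling factors, filters, DESeq2 1.42.0, a replicate block, fewer groups in the fit and each library left out.

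The members and lists were chosen with earlier results of these data known. Named genes were the members, EEF2K, the 5 genes most like EEF2 in footprints, and up to 3 genes per list with the largest called ratio change at 5 h, and any list gene alone in its direction. COX7C was named after its value was seen, as the exception in its list.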

Additional observations from a re-analysis of the deposited data

Results flagged for a closer look

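Over 48 groups of 4 libraries (6 genes, 2 assays, 4 times), 3 held a library far from the other 3, by the gap to its nearest neighbour over the range of the group. Chance gives such a library in about 1 in 20 groups. All 3 were RNA libraries. EEF2 RNA in replicate 2 at 5 h was 5326 CPM, with the others between 3215 and 3307 CPM. EEF1B2 RNA in the same library was 129 CPM, with the others between 149 and 152 CPM. EEF1A2 RNA in replicate 3 at 10 h was 40.6 CPM, with the others between 11.7 and 16.3 CPM.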

How the results depend on the processing

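Each library left out in turn, other scaling, filters, tools and a replicate block were tried. Of 2029 values for members and for numbers of called genes, 1943 were kept. A member was kept with the same direction and side of the threshold. A number of called genes was kept within a fixed fold of the main number. For example, 3911 genes called in RNA at 5 h against 0 h with a replicate block, against 3149, counted as kept. Log2 changes are given for the comparison named, and the cause of each difference was not tested. EEF1A2 had 388 RNA and 387 footprint counts in all, and EEF1E1, with 0 and 4, was not tested.

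Scaling by library totals alone gave -1.11 for EEF1A2 RNA (10 h against 0 h, called), -0.091 for EEF1B2 RNA (15 h against 0 h), -0.64 and -0.75 for EEF1A2 footprints (5 h and 10 h against 0 h, called), and 977 genes called in the ratio at 5 h, against 565. Upper-quartile factors gave -1.14 for EEF1A2 RNA (10 h against 0 h, called), -0.0024 and -0.079 for EEF1B2 RNA (10 h and 15 h against 0 h), -0.65 for EEF1A2 footprints (10 h against 0 h, called), and -0.018 for EEF1D and 0.071 for EEF1G footprints (10 h against 5 h, the second no longer called). EEF1B2 RNA at 15 h against 10 h was 0.000126 with RLE factors, 0.000223 with DESeq2 and 0.012 without a filter on low counts, against -0.02. Without that filter EEF1D RNA (5 h against 0 h) was -0.33 and EEF1G RNA (10 h against 0 h) -0.27, both no longer called, and 1 gene was called in the ratio at 15 h against 10 h. DESeq2 called 118 genes in the ratio at 10 h against 5 h, where edgeR called 57, and 2 at 15 h against 10 h, and gave 0.048 for the EEF1A2 ratio at 15 h against 10 h.

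Library totals alone shifted the median of all genes in footprints by -0.29, -0.29 and -0.34 at 5 h, 10 h and 15 h against 0 h, in RNA by -0.10 at 5 h and -0.18 at 15 h, and in the ratio by -0.15 at 5 h and -0.10 at 10 h. Upper-quartile factors shifted it by -0.12 and -0.17 in RNA and -0.19 and -0.24 in footprints at 10 h and 15 h. Of genes called in footprints at 5 h, 10 h and 15 h against 0 h, 29.63%, 35.24% and 33.7% were higher with totals alone, against 46.5%, 50.27% and 50.35%. In the ratio at 5 h and 10 h it was 28.56% and 52.67%, against 63.89% and 75.16%, and in RNA 43.05% at 5 h and 38.27% at 15 h, against 53.38% and 50.01%. With upper-quartile factors it was 38.87% in RNA at 15 h, and 40.11% and 38.54% in footprints at 10 h and 15 h. At 15 h against 10 h it was 45.4% with totals and 53.97% with upper-quartile factors in RNA, against 64.35%, and 37.05% and 38.37% in footprints, against 50.63%. At 10 h against 5 h upper-quartile factors gave 39.21% in footprints, against 50.22%.

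The labels do not say that replicate numbers mark a shared culture or day. Deviations of same-numbered libraries had a median r of 0.198 in RNA (17 of 24 pairs over 0.1, all 6 numbered 1 and all 6 numbered 2 among them, beside 14 of 72 pairs with different numbers) and 0.0339 in footprints (1 of 24), and 11 of 16 RNA and 9 of 16 footprint libraries correlated best with their own number. With a replicate block EEF1A1 RNA was -0.29 at 10 h against 0 h and -0.46 at 10 h against 5 h (adjusted p = 0.00269 by edgeR, against 0.0743 without it), EEF1A2 RNA -1.01 and -0.74 at 10 h and 15 h against 0 h, and EEF1A2 footprints -0.52 at 10 h against 0 h, all called. The EEF1A2 ratio was 0.0095 at 15 h against 10 h. The block called 1170 genes in RNA at 15 h against 10 h, against 519, and in the ratio 1048, 1018 and 1542 at 5 h, 10 h and 15 h against 0 h, 146 at 10 h against 5 h and 8 at 15 h against 10 h, against 565, 632, 958, 57 and 0. Without the RNA libraries numbered 2, chosen after seeing the data, EEF1B2 RNA was 0.094 and EEF1D RNA 0.0011 at 15 h against 10 h.

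With 1 library left out, changes against 0 h ran from -0.44 to -0.28 for EEF1D RNA at 5 h (not called without RNA 5 h replicate 1), -1.44 to -0.73 for EEF1A2 RNA at 10 h (called without 10 h replicate 3), -0.39 to -0.25 for EEF1G RNA at 10 h (not called without 10 h replicate 1), -0.62 to -0.29 for EEF1A1 RNA at 15 h (not called without 0 h replicate 1), -0.47 to 0.0045 for EEF1A2 footprints at 15 h and -0.44 to 0.072 for its ratio at 5 h. At 10 h against 5 h they ran from -0.12 to 0.023 for EEF1B2 RNA, -0.39 to 0.055 for EEF2 RNA (positive without 5 h replicate 2), -0.26 to 0.051 for EEF1A2 footprints, -0.22 to 0.064 for the EEF1A1 ratio and -0.26 to 0.13 for the EEF2 ratio. At 15 h against 10 h they ran from -0.089 to 0.19 for EEF1B2 RNA, -0.31 to 0.070 for EEF2 RNA, -0.022 to 0.41 for EEF1A2 footprints, -0.19 to -0.14 for EEF1D footprints, and in the ratio -0.47 to 0.15 for EEF1A2, -0.12 to 0.024 for EEF1D and -0.27 to 0.11 for EEF2. At 15 h against 10 h 333 (without RNA 10 h replicate 3) to 717 genes were called in RNA and 0 to 4 (without RNA 10 h replicate 1) in the ratio. For the RNA calls of EEF1D, EEF1A2, EEF1G and EEF1A1 against 0 h, leaving out some other libraries also changed the call.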
